A study of Mus musculus with 15 samples.

Results

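Alox15 and 9 other genes of eicosanoid synthesis (Alox5, Alox5ap, Ltc4s, Lta4h, Ptgs1, Ptgs2, Ptges, Hpgds and Tbxas1) were followed across myeloid cells sorted from mouse tumours. They were taken by symbol from a count table of 50508 genes, and all 10 passed the filter on low counts that left 13800 genes for testing. The tumours were established from LLC (Lewis lung carcinoma) cells, either Mock-LLC or SULT2B1b-LLC, and were taken at day 10. SULT2B1b is a sulfotransferase that sulfates cholesterol and oxysterols. Cells with high surface Ly6C that carried CD11c and MHC-II, and cells with low Ly6C, were sorted from these tumours. Mock-LLC tumours gave 4 libraries of each population, and SULT2B1b-LLC tumours gave 4 Ly6Chigh and 3 Ly6Clow libraries (tumours 2, 3 and 4). Each library is 1 numbered tumour. Which strain and age the mice had, how SULT2B1b was introduced and whether each line is 1 clone were not stated in the labels. The list was chosen by the measured levels of Alox15 in these 4 groups, so those levels are given as a description with no test.

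Eicosanoids are short-lived lipid signals made from arachidonic acid, which phospholipases release from membranes. Lipoxygenases turn it into hydroperoxides, leukotrienes and lipoxins, and cyclooxygenases turn it into prostaglandins and thromboxane. In myeloid cells Alox5 works with its membrane partner Alox5ap, and Alox15 is typical of eosinophils and of some tissue macrophages.

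The Ly6Clow libraries were deeper. Their totals ran from 19792494 to 39284008 counts, and those of the 8 Ly6Chigh libraries from 2617878 to 10626954. One library stood apart, that of SULT2B1b-LLC Ly6Chigh tumour 1: it had the fewest counts but 24540 genes with a count, against 13123 to 17737 in the other Ly6Chigh libraries, and 9.83% of its counts lay on unnamed gene models. Several values that it moves are also given without it. Sult2b1 itself was counted at 9.31 to 19.1 CPM (counts scaled to library size with TMM factors, as edgeR's cpm gives them) in SULT2B1b-LLC Ly6Chigh libraries and at 1.12 to 2.39 CPM in SULT2B1b-LLC Ly6Clow libraries. In the Mock-LLC libraries it was at most 0.51 CPM. Ly6c2, a gene of the sorting marker, averaged 27.2 CPM in Mock-LLC Ly6Clow and 27.5 CPM in SULT2B1b-LLC Ly6Clow cells, against 1382 CPM and 1605 CPM in the Ly6Chigh groups. Itgax, which encodes CD11c, and H2-Ab1, an MHC-II gene, were counted in every library of both populations (at least 69.0 CPM and 2550 CPM).

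Alox15 (chromosome 11, 70344152 to 70352031 on GRCm38, minus strand) encodes a lipoxygenase that oxygenates arachidonate in leukocytes. In Mock-LLC Ly6Clow libraries it stood at 226.6, 227.0, 240.2 and 308 CPM, and in SULT2B1b-LLC Ly6Clow libraries at 359, 439 and 419.7 CPM. Every SULT2B1b-LLC Ly6Clow library lay above every Mock-LLC Ly6Clow library. In Mock-LLC Ly6Chigh libraries it had 0 counts in 3 tumours and 4 counts, 0.362 CPM, in tumour 4. In SULT2B1b-LLC Ly6Chigh libraries it stood at 13.3, 7.13, 11.4 and 6.12 CPM, from 35, 62, 90 and 59 counts. The 4 groups did not overlap. Ranges of SULT2B1b-LLC and Mock-LLC libraries were separate for 5.53% of all genes in Ly6Chigh cells (2.78% with SULT2B1b-LLC higher and 2.75% lower) and for 16.1% in Ly6Clow cells (7.59% higher and 8.55% lower). From the highest, the order was SULT2B1b-LLC Ly6Clow (406 ± 41.9 CPM, SD, n = 3), Mock-LLC Ly6Clow (250.5 ± 39.0, n = 4), SULT2B1b-LLC Ly6Chigh (9.48 ± 3.41, n = 4) and Mock-LLC Ly6Chigh.

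**Figure D1:**
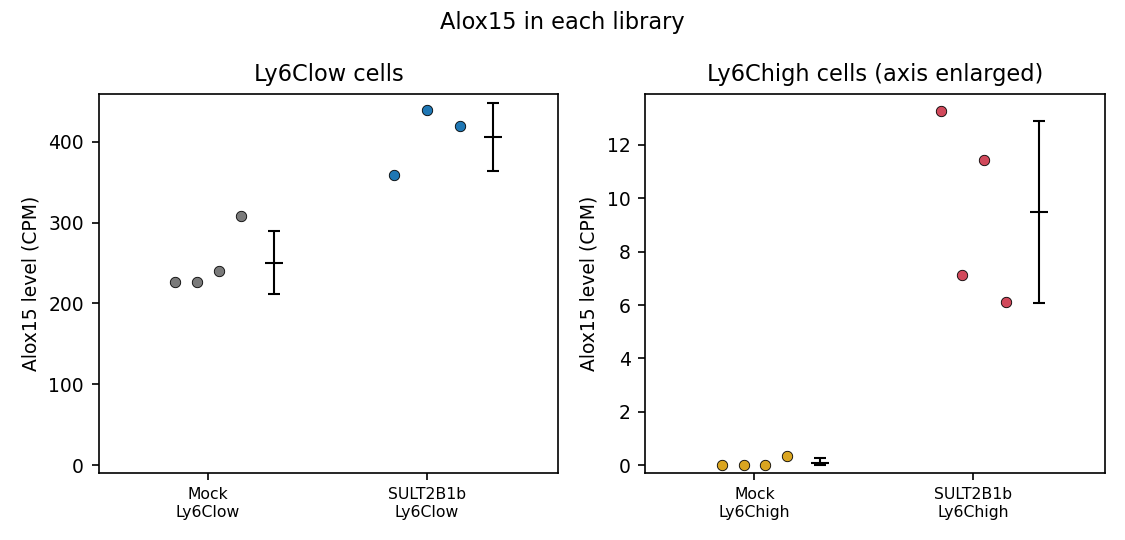
Alox15 level in CPM (y axis, linear, with an enlarged axis for Ly6Chigh cells) in each library (points, by group), with the group mean and SD beside them (bars cut at 0). SULT2B1b-LLC libraries lie above Mock-LLC libraries in both populations, and the highest Ly6Chigh library (13.3 CPM) lies far below the lowest Ly6Clow library (226.6 CPM).

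Over pooled counts, SULT2B1b-LLC Ly6Chigh cells had 246 Alox15 counts and Mock-LLC Ly6Chigh cells 4. Scaled to library size, this is a ratio of 80.9, and all 4 Mock-LLC counts came from tumour 4. In Ly6Clow cells the ratio of SULT2B1b-LLC to Mock-LLC was 1.63. Without SULT2B1b-LLC Ly6Chigh tumour 1, Alox15 averaged 8.22 ± 2.82 CPM (SD, n = 3) in that group. The level in SULT2B1b-LLC Ly6Chigh cells was 2.34% of that in SULT2B1b-LLC Ly6Clow cells, and the Mock-LLC value was 0.0361%. In sorted bulk samples, fewer cells of a type and less RNA per cell cannot be told apart.

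Summed markers of other cells that express Alox15 partly ran with it. The summed level of 9 eosinophil markers ranged from 203 to 270.4 CPM in Mock-LLC Ly6Clow and from 301 to 389 CPM in SULT2B1b-LLC Ly6Clow libraries, again without overlap. All 9 had a count in both Ly6Clow groups. Of the 6 tested, 0 were called between tumour types in either population, with a median log2 change of 0.55 in Ly6Clow cells and 2.95 in Ly6Chigh cells. Among all genes 0.638% were called in Ly6Clow and 1.62% in Ly6Chigh cells. In Mock-LLC Ly6Chigh cells 3 of the 9 had a count (3.72 to 55.3 CPM summed), and Prg2, Epx, Il5ra, Ear1, Ear6 and Prg3 were at 0. In SULT2B1b-LLC Ly6Chigh cells 7 of 9 had a count (25.7 to 63.2 CPM summed), with Epx and Prg3 at 0. Without tumour 1 of that group 4 of 9 had a count (25.7 to 42.0 CPM summed), since Il5ra, Ear1 and Ear6 were counted in tumour 1 alone. Ear2, a member of a family of near-identical genes, averaged 30.6 CPM over the 4 tumours and made up most of the sum. Siglecf, the eosinophil surface lectin, was at 1.89, 0, 0 and 1.56 CPM in tumours 1 to 4 of this group. Tumours 2 and 3 had Alox15 counts and no Siglecf count. As a percent of the SULT2B1b-LLC Ly6Clow mean, Ccr3 was at 0.169% and 5.98% in tumours 2 and 3, and Prg2 at 4.26% and 0. The Ccr3 value in tumour 2 came from fewer than 3 counts, and Prg2 was counted in tumour 2 alone of this group. Alox15 was at 1.76% and 2.81% in the same tumours. The summed level of 12 markers of resident-like macrophages, among them C1qa and Mrc1 and with Gata6 at 0 in Mock-LLC Ly6Chigh and SULT2B1b-LLC Ly6Clow cells, ran from 3476 to 3888 CPM in Mock-LLC Ly6Chigh and from 5644 to 7758 CPM in SULT2B1b-LLC Ly6Chigh libraries (from 6200.0 CPM without tumour 1). In Ly6Clow libraries the same sum ran from 8512 to 10426 CPM and from 13519 to 14008 CPM. C1qa, C1qb and C1qc made up most of these sums. Of the 11 macrophage markers tested, 4 were higher and 0 lower in SULT2B1b-LLC than in Mock-LLC Ly6Chigh cells (median log2 change 0.85), and 1, C1qa, was higher and 0 lower in Ly6Clow cells (median 0.15). The shares of all genes were 0.891% higher and 0.725% lower in Ly6Chigh cells, and 0.507% and 0.13% in Ly6Clow cells. Cd163, Lyve1, Timd4 and Trem2 had lower means in SULT2B1b-LLC than in Mock-LLC Ly6Clow cells, with 0 of the 4 called. The sum of 9 markers of alternatively activated macrophages, all counted in each group, was 7906 to 12225 CPM in Mock-LLC Ly6Clow and 6706 to 8932 CPM in SULT2B1b-LLC Ly6Clow libraries, so its order there was opposite to that of Alox15 by the medians (9367 and 6916 CPM), with overlapping ranges. In Ly6Chigh libraries it was 3333 to 10538 CPM in Mock-LLC and 4683 to 8059 CPM in SULT2B1b-LLC, and 0 of the 9 were called between tumour types in either population. The sum of 10 markers of mast cells and basophils was 3.23 to 17.5 CPM in Mock-LLC Ly6Chigh libraries, with 3 counted. It was 19.0 to 65.9 CPM in SULT2B1b-LLC Ly6Chigh libraries, with 9 counted (19.0 to 42.5 CPM and 7 without tumour 1). Of the 6 tested, 0 were called between tumour types in either population. The resident-like macrophage sums ran in the order of Alox15 within each population. The eosinophil sums did so in Ly6Clow cells and overlapped in Ly6Chigh cells. The mast cell and basophil sums did so in Ly6Chigh cells and overlapped in Ly6Clow cells. The part of these cell types in the level of Alox15 was not tested.

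**Figure D2:**
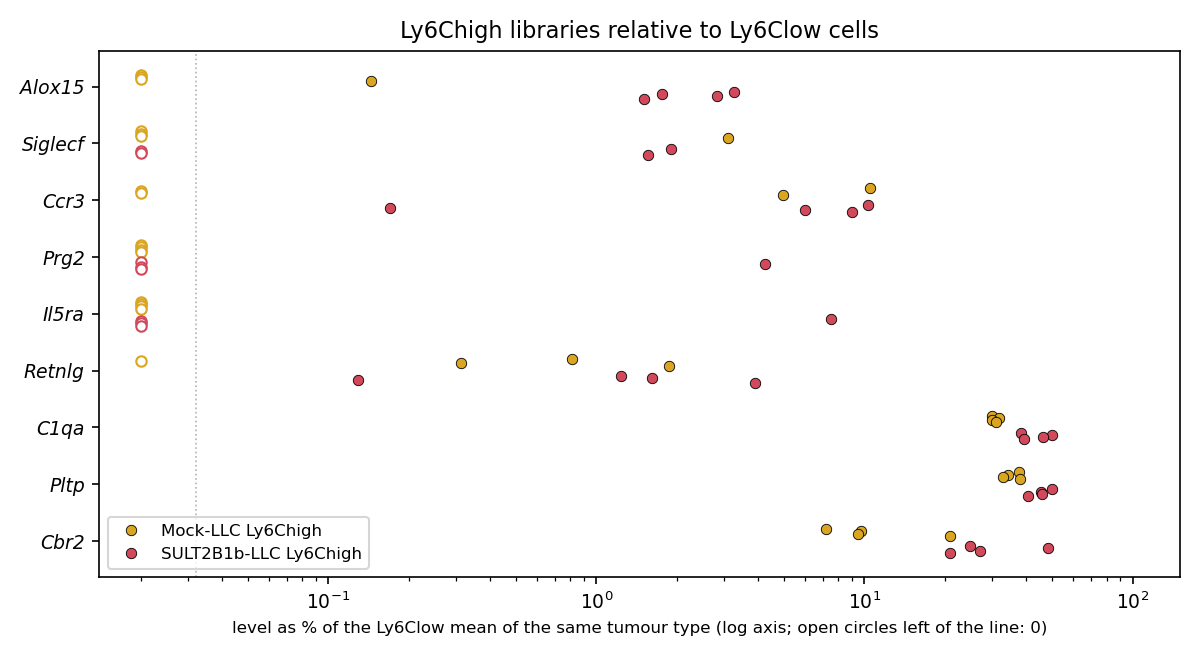
Level in each Ly6Chigh library as a percent of the Ly6Clow mean of the same tumour type (x axis, log scale) for Alox15, 4 eosinophil markers (Siglecf, Ccr3, Prg2, Il5ra), the neutrophil marker Retnlg, C1qa, and Pltp and Cbr2, which were among the genes most like Alox15. Alox15 lies between 1.51% and 3.27% in SULT2B1b-LLC libraries and at 0 in 3 Mock-LLC libraries (open circles mark 0), whereas C1qa and Pltp lie between 29.9% and 50.1%. The SULT2B1b-LLC means of Siglecf (0.865%), Ccr3 (6.37%), Prg2 (1.06%), Il5ra (1.88%) and Retnlg (1.72%) were also low, and that of Cbr2 was 30.3%. Markers not shown differ. Among eosinophil markers, Ear2 was at 98.2% in Mock-LLC and 67.6% in SULT2B1b-LLC, and Ear6 at 0 and 11.4%. Epx and Prg3 were at 0 in both, and Ear1 was counted in 1 Ly6Chigh library. Macrophage markers not shown ran from 12.9% (Lyve1) to 95.7% (Timd4) in Mock-LLC, with Gata6 at 0. The neutrophil marker Csf3r was higher in Mock-LLC Ly6Chigh cells.

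The genes whose levels ran most like Alox15 over the 15 libraries, by Pearson correlation of log2 CPM and leaving out unnamed models, were Vcp-rs (0.974), Pltp (0.972), Cbr2 (0.971), C1qa (0.965), Ntpcr (0.956), Ncf1 (0.952), Vcp (0.948) and C1qc (0.947). Vcp-rs is a processed pseudogene of Vcp, so their reads may be shared. The libraries form 2 populations of unequal depth, and these values only rank 11850 genes. With Spearman's rank correlation 2 of the 8 were still among the first 8. Over the 7 Ly6Clow libraries alone, which fall into 2 tumour types, the genes most like Alox15 were Cyp4f18 (0.996), Sars2 (0.993), Batf3 (0.990), Epsti1 (0.988) and Cnpy3 (0.982). Cyp4f18, a leukotriene-degrading hydroxylase in mouse neutrophils, averaged 606 ± 32.4 CPM (SD, n = 4) in Mock-LLC and 701 ± 17.2 CPM (n = 3) in SULT2B1b-LLC Ly6Clow cells. Of the other members, Alox5 had the value closest to Alox15 over all libraries (0.910, rank 35).

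Levels of different genes were compared per kilobase of annotated exon. In each of the 4 groups Alox5ap was first by a wide margin, at 681 CPM per kb in Mock-LLC Ly6Clow and 401 CPM per kb in Mock-LLC Ly6Chigh cells. Alox15 came second in both Ly6Clow groups, at 102 and 165 CPM per kb, and its range overlapped with neither neighbour in that order. It was last in Mock-LLC Ly6Chigh cells (0.0369 CPM per kb) and eighth in SULT2B1b-LLC Ly6Chigh cells (3.86 CPM per kb), where its range overlapped those of Ptgs1 and Hpgds. Ptgs2 was second in both Ly6Chigh groups, at 39.8 and 37.4 CPM per kb, and Tbxas1 came next, at 24.6 and 30.9 CPM per kb, with ranges that overlapped in SULT2B1b-LLC cells. With the length of the longest transcript in place of the exon union, Tbxas1 was second (49.1 and 61.7 CPM per kb) and Ptgs2 came after it (41.0 and 38.5 CPM per kb), and 2 to 6 of the 10 members changed rank in a group. Ptges had its highest mean in Mock-LLC Ly6Chigh cells, at 1.35 CPM per kb (SD 1.46). Tumours 2 and 3 of that group had 3 counts each, and its range overlapped that of SULT2B1b-LLC Ly6Chigh cells. In Mock-LLC Ly6Clow cells Alox15 was followed by Ltc4s and Alox5, whose ranges overlapped, and in SULT2B1b-LLC Ly6Clow cells by Alox5 and then Tbxas1, Ptgs2, Ltc4s, Ptgs1 and Lta4h, each overlapping the next. In both Ly6Chigh groups Lta4h, Ltc4s, Alox5 and Ptgs1 came after Tbxas1 in that order, each overlapping the next, but by the longest transcript Ptgs1 stood above Alox5 in SULT2B1b-LLC cells.

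**Figure D3:**
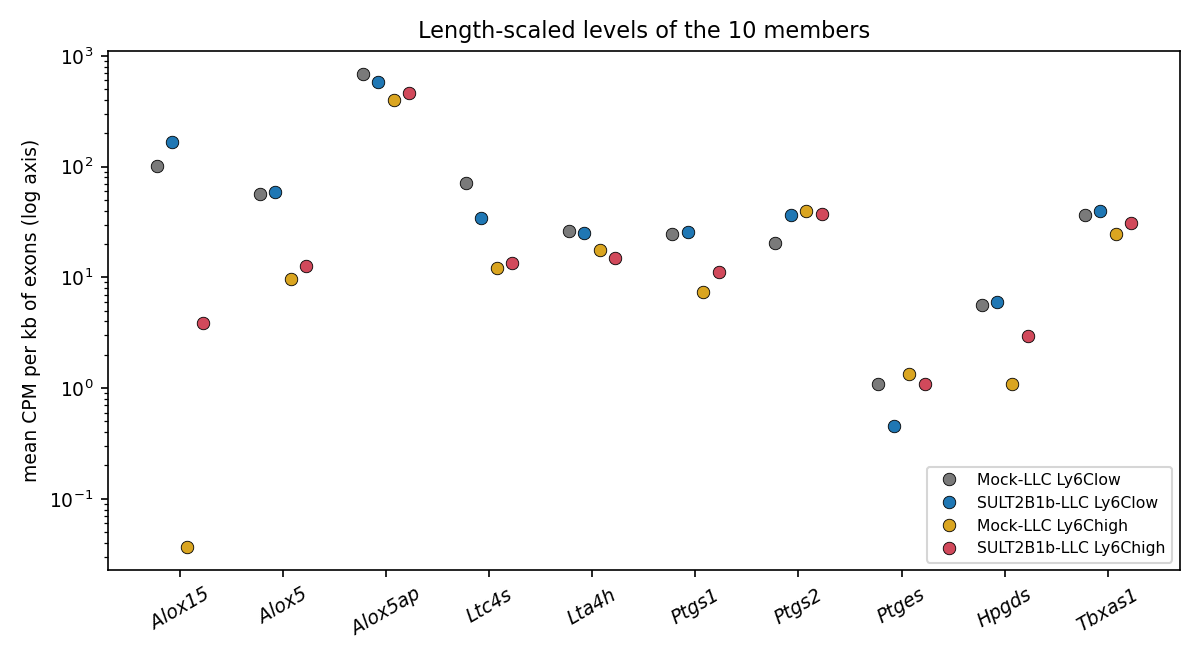
Mean level of each member in CPM per kb of exon (y axis, log scale), 1 point per group. Alox15 spans the widest range on this scale, from 0.0369 to 165 CPM per kb, and Alox5ap is the highest in all 4 groups.

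The 4 leukotriene genes were lower in Ly6Chigh than in Ly6Clow cells of Mock-LLC tumours, and Alox5 and Lta4h were lower in SULT2B1b-LLC tumours too. Alox5 (chromosome 6, 116410077 to 116461178), the lipoxygenase that begins leukotriene synthesis, stood at 247, 204, 226 and 260.4 CPM in Mock-LLC Ly6Clow and 40.6, 45.8, 35.5 and 36.1 CPM in Mock-LLC Ly6Chigh libraries. In SULT2B1b-LLC tumours it stood at 209, 244 and 268 CPM in Ly6Clow and 52.6, 37.5, 53.9 and 63.4 CPM in Ly6Chigh libraries. The populations did not overlap in either tumour type, and the tumour types overlapped in both populations. Alox5 fell by 2.57 on the log2 scale (SE 0.165, adjusted p = 1.85e-07) from Ly6Clow to Ly6Chigh cells in Mock-LLC and by 2.21 (SE 0.170, adjusted p = 2.14e-06) in SULT2B1b-LLC tumours. Of the 9 members other than Alox15, 6 were lower and 0 higher in Mock-LLC Ly6Chigh cells, where 8.41% of all genes tested were called (3.55% higher and 4.86% lower). In SULT2B1b-LLC tumours 2 of 9 were lower and 0 higher, and 2.64% of all genes were called (1.1% higher and 1.54% lower). Counting Alox15, the ranges of Ly6Chigh libraries lay wholly below those of Ly6Clow libraries for 8 of 10 members in Mock-LLC tumours and wholly above for 1, Ptgs2. Among all genes this held for 22.3%, with 15.8% lower and 6.46% higher. In SULT2B1b-LLC tumours 7 of 10 lay wholly below, against 13.9% of all genes (19.5% in either direction, 5.57% higher). The members were chosen with earlier results of these data known, so these counts are a description. The median log2 change of the 9 was -0.76 in Mock-LLC and -0.74 in SULT2B1b-LLC tumours, against -0.08 and -0.03 over all genes. Calls over all genes were 490 higher and 670 lower in Mock-LLC tumours, but 619 and 431 with median-ratio scaling, which moved the median of all genes to 0.05. In SULT2B1b-LLC tumours they were 152 higher and 213 lower, and 218 and 151 with that scaling. Alox5, Ltc4s, Lta4h and Alox5ap kept their sign between populations under that scaling.

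Summed markers of neutrophils and platelets, other cells that make leukotrienes and thromboxane, were lower in Mock-LLC Ly6Chigh than in Mock-LLC Ly6Clow libraries, through a few genes. The summed level of 10 neutrophil markers was 507 to 799 CPM in Mock-LLC Ly6Clow libraries, with all 10 counted, and 76.9 to 151 CPM in Mock-LLC Ly6Chigh libraries, with 9 counted and Camp at 0. In SULT2B1b-LLC tumours it was 605 to 746 CPM (8 counted, Ly6g and Ngp at 0) and 109 to 152 CPM (9 counted, Ngp at 0). Retnlg carried most of the Ly6Clow sum, at 470.9 against 3.52 CPM in Mock-LLC tumours, followed by Mmp9, at 96.7 against 13.4 CPM. Of the 7 tested, Retnlg was lower in Ly6Chigh cells of both tumour types and Csf3r was higher in those of Mock-LLC tumours (43.0 against 74.6 CPM), with 0 others called and a median log2 change of 0.55 in Mock-LLC and -0.36 in SULT2B1b-LLC tumours. The sum of 7 platelet markers was 224 to 299 CPM and 65.1 to 179 CPM in Mock-LLC tumours (Gp9, and Gp6 and Treml1, at 0), and overlapped between populations in SULT2B1b-LLC tumours. Of its 3 genes tested 0 were called in either tumour type, with medians of -1.18 and -0.71. Eosinophil markers had 5 of 6 tested lower in Ly6Chigh than in Ly6Clow cells of Mock-LLC tumours (median log2 change -8.11). In SULT2B1b-LLC tumours 4 of 6 were lower (median -5.18). Of 11 resident-like macrophage markers tested, 8 and 6 were lower (medians -1.35 and -0.94). In both lists 0 were higher. Over all genes tested, 3.55% were called higher and 4.86% lower in Mock-LLC tumours, and 1.1% and 1.54% in SULT2B1b-LLC tumours. The part of these cells in the differences of Alox5, Alox5ap, Ltc4s, Lta4h, Ptgs1 and Tbxas1 was not tested.

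Ltc4s (chromosome 11, 50236461 to 50238616), which joins glutathione to leukotriene A4 to make cysteinyl leukotrienes, had 60.1, 74.8, 63.3 and 92.2 CPM in Mock-LLC Ly6Clow libraries. It had 4.69, 18.8, 8.02 and 17.3 CPM in Mock-LLC Ly6Chigh libraries. It fell by 2.57 on the log2 scale (SE 0.380, adjusted p = 0.000697) between them. In SULT2B1b-LLC tumours it had 24.3, 43.5 and 36.3 CPM in Ly6Clow and 13.6, 10.7, 17.9 and 12.5 CPM in Ly6Chigh libraries. The populations again did not overlap, with a log2 change of -1.34 (SE 0.390, adjusted p = 0.0888). It passed the threshold with DESeq2 (adjusted p = 0.0442) and without Mock-LLC Ly6Chigh tumour 1 (0.0434). In Ly6Clow cells all 3 SULT2B1b-LLC libraries lay below all 4 Mock-LLC libraries. That log2 difference was -1.07 (SE 0.394, adjusted p = 0.767), and it passed the threshold with limma-voom (adjusted p = 0.00841), with quality weights (0.0011) and in a fit of the Ly6Clow groups alone (0.0416).

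Alox5ap (chromosome 5, 149264767 to 149288153), which presents arachidonate to Alox5, had 931 to 1008 CPM in Mock-LLC Ly6Clow libraries and 766 to 871 CPM in SULT2B1b-LLC Ly6Clow libraries, without overlap. It had 525, 591, 595 and 568 CPM in Mock-LLC Ly6Chigh libraries. In SULT2B1b-LLC Ly6Chigh libraries it had 384, 740.5, 749.8 and 737 CPM, the lowest in tumour 1, the library that stood apart. Alox5ap fell by 0.76 on the log2 scale (SE 0.161, adjusted p = 0.00865) from Ly6Clow to Ly6Chigh cells in Mock-LLC tumours. This call was lost without Mock-LLC Ly6Clow tumour 3 (adjusted p = 0.0546) or Mock-LLC Ly6Chigh tumour 1 (0.0587). Between tumour types in Ly6Chigh cells the log2 difference was 0.20 (SE 0.160, adjusted p = 0.622), and without SULT2B1b-LLC tumour 1 it was 0.39 (adjusted p = 0.0212).

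Lta4h (chromosome 10, 93453411 to 93484875), the hydrolase that makes leukotriene B4, had 146 to 175 CPM in Mock-LLC Ly6Clow and 95.7 to 126 CPM in Mock-LLC Ly6Chigh libraries. In SULT2B1b-LLC tumours it had 150.5 to 155 CPM in Ly6Clow and 76.9 to 105 CPM in Ly6Chigh libraries. It fell by 0.58 (SE 0.124, adjusted p = 0.00935) and by 0.74 (SE 0.133, adjusted p = 0.0064) on the log2 scale. With the tumour as a block the SULT2B1b-LLC value was -0.67 (adjusted p = 0.0681). Both calls were also lost with no filter on low counts (-0.55, adjusted p = 0.157, and -0.75, adjusted p = 0.0763) and in fits of the 2 groups compared (adjusted p = 0.0502 and 0.0559). The Mock-LLC call was lost without any 1 of Mock-LLC Ly6Clow tumours 1, 3 and 4 or Mock-LLC Ly6Chigh tumours 1, 3 and 4 (adjusted p up to 0.0746). The SULT2B1b-LLC call was lost without any 1 of its 3 Ly6Clow libraries (adjusted p up to 0.0902).

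**Figure D4:**
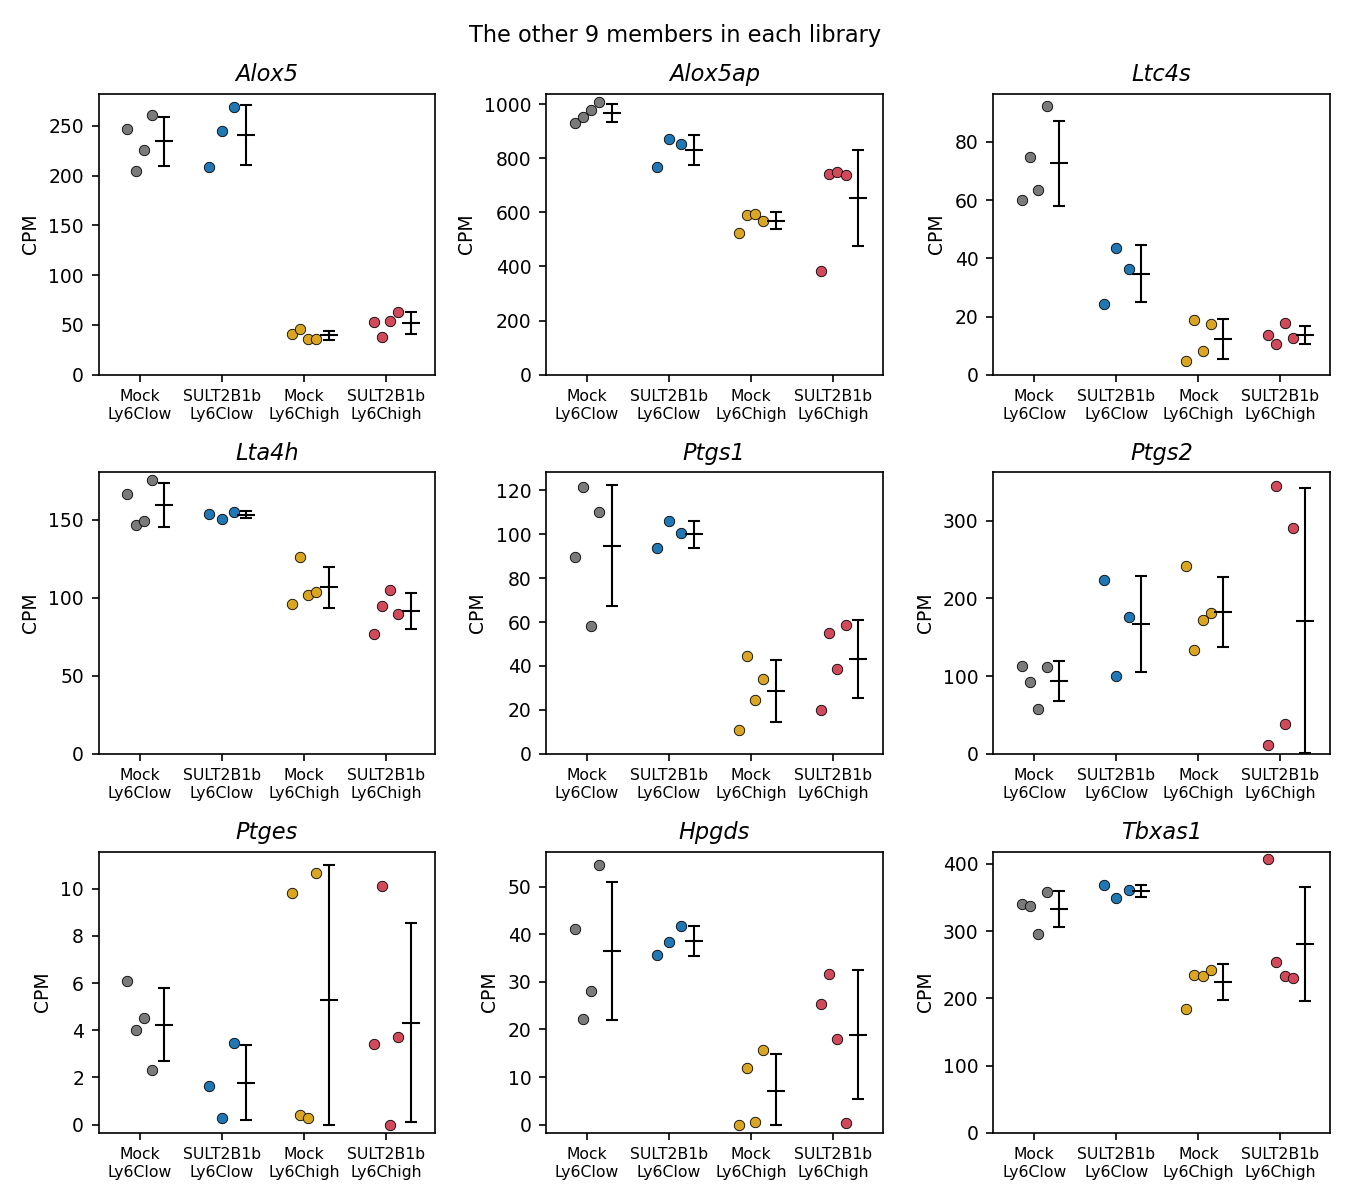
Levels in CPM (y axis, linear) of the other 9 members in each library (points), with the group mean and SD (bars cut at 0). Alox5, Ltc4s and Ptgs1 are lower in Ly6Chigh than in Ly6Clow libraries, while Ptgs2 and Ptges scatter widely among Ly6Chigh libraries.

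Of the 2 cyclooxygenases, Ptgs1 was lower in Mock-LLC Ly6Chigh than in Mock-LLC Ly6Clow cells and Ptgs2 was not. Ptgs1 (chromosome 2, 36230426 to 36252272), the constitutive enzyme, had 89.7, 121, 58.3 and 110.1 CPM in Mock-LLC Ly6Clow and 11.0, 44.6, 24.5 and 34.0 CPM in Mock-LLC Ly6Chigh libraries. It fell by 1.74 on the log2 scale (SE 0.381, adjusted p = 0.011), a call lost with limma-voom's quality weights (-1.63, adjusted p = 0.0562) and at a threshold of 0.01. In SULT2B1b-LLC tumours it had 93.7 to 106 CPM in Ly6Clow and 20.1, 55.2, 38.6 and 58.7 CPM in Ly6Chigh libraries, with a log2 change of -1.20 (SE 0.398, adjusted p = 0.139). The populations did not overlap in either tumour type. Ptgs2 (chromosome 1, 150100031 to 150108227), the inducible enzyme, had 112, 92.5, 57.9 and 112 CPM in Mock-LLC Ly6Clow and 242, 134, 172 and 182 CPM in Mock-LLC Ly6Chigh libraries. All 4 Ly6Chigh libraries were above the Ly6Clow ones, but the log2 change of 0.96 (SE 0.668) had an adjusted p of 0.435. A fit of those 2 groups alone gave 1.06 with an adjusted p of 0.0303. In SULT2B1b-LLC Ly6Chigh libraries Ptgs2 had 11.7, 345, 38.3 and 291 CPM, a spread wider than the range of any other group. The log2 difference from Mock-LLC Ly6Chigh cells was -0.08, with a 95% interval of -1.49 to 1.33, and 0.31 without SULT2B1b-LLC tumour 1. The summed level of 7 fibroblast markers, all counted in each group, was 131 to 723 CPM in Mock-LLC Ly6Chigh and 647 to 1518 CPM in SULT2B1b-LLC Ly6Chigh libraries (from 1061 CPM without tumour 1), and its part in Ptgs2 was not tested.

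The 250 bases before the annotated start of Alox5, Ptgs1 and Ptgs2 are shown because Alox5 and Ptgs1 were lower in Mock-LLC Ly6Chigh cells and Ptgs2, the other cyclooxygenase, was not. They are from RefSeq on GRCm38.p6 and lie at chr6:116461179-116461428 (minus strand), chr2:36230176-36230425 (plus strand) and chr1:150099781-150100030 (plus strand), 5′ to 3′. Capitals mark GGGCGG, the GC box, and GAGGAAG, an element of the type that ETS factors bind, each searched on both strands.
Alox5: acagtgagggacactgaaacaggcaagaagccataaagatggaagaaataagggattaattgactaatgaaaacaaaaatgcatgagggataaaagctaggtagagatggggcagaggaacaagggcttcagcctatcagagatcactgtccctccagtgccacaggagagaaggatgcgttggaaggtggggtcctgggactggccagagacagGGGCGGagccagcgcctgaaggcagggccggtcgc
Ptgs1: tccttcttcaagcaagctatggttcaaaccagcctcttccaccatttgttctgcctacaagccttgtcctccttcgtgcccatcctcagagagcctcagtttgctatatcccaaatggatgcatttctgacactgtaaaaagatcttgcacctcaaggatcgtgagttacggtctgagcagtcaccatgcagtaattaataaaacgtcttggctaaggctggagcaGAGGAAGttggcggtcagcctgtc
Ptgs2: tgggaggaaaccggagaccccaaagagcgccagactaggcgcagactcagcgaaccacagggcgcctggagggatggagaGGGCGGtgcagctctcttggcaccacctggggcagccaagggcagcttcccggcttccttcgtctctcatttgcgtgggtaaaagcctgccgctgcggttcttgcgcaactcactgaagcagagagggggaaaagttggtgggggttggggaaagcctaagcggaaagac
The motifs were picked after these windows had been read, and 2 lengths of the ETS-type element were searched, so the counts are a description only. RefSeq windows were found for 8 of the 10 members. The GC box was in 3 of the 8 and in 32.7% of all 32851 windows. GAGGAAG was in 3 of the 8 (Ptgs1, Hpgds and Tbxas1) and in 10.6% of all windows. The shorter GAGGAA, which lies within it, was in 7 of the 8 and in 23.3% of all windows. Ltc4s was the member without it.

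The terminal prostanoid synthases were less uniform. Tbxas1 (chromosome 6, 38875404 to 39084585), thromboxane synthase, had 296 to 358 CPM in Mock-LLC Ly6Clow and 184, 235, 234 and 243 CPM in Mock-LLC Ly6Chigh libraries. It fell by 0.57 on the log2 scale (SE 0.162, adjusted p = 0.0395), a call lost under most other settings, among them median-ratio scaling (adjusted p = 0.138) and DESeq2 (0.0805). It was also lost with 13 of the 15 libraries left out in turn, the exceptions being SULT2B1b-LLC Ly6Chigh tumours 1 and 4. In SULT2B1b-LLC Ly6Chigh libraries it had 407, 254, 233 and 231 CPM, the highest in tumour 1. The log2 change between populations in SULT2B1b-LLC tumours was -0.36 (adjusted p = 0.356) with that library and -0.53 (adjusted p = 0.0199) without it. Hpgds (chromosome 6, 65117293 to 65144908), the haematopoietic prostaglandin D synthase, had 22.1 to 54.7 CPM in Mock-LLC Ly6Clow libraries and 0, 11.8, 0.489 and 15.6 CPM in Mock-LLC Ly6Chigh libraries. In SULT2B1b-LLC tumours it had 35.6 to 41.8 CPM in Ly6Clow and 25.4, 31.7, 18.0 and 0.311 CPM in Ly6Chigh libraries. Its populations did not overlap in either tumour type, but the log2 changes of -2.39 (SE 1.09, adjusted p = 0.211) and -1.04 (SE 1.11, adjusted p = 0.749) did not pass. Ptges (chromosome 2, 30889471 to 30929863), the inducible prostaglandin E synthase, was between 0 and 10.7 CPM in all 15 libraries and its groups overlapped throughout.

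**Figure D5:**
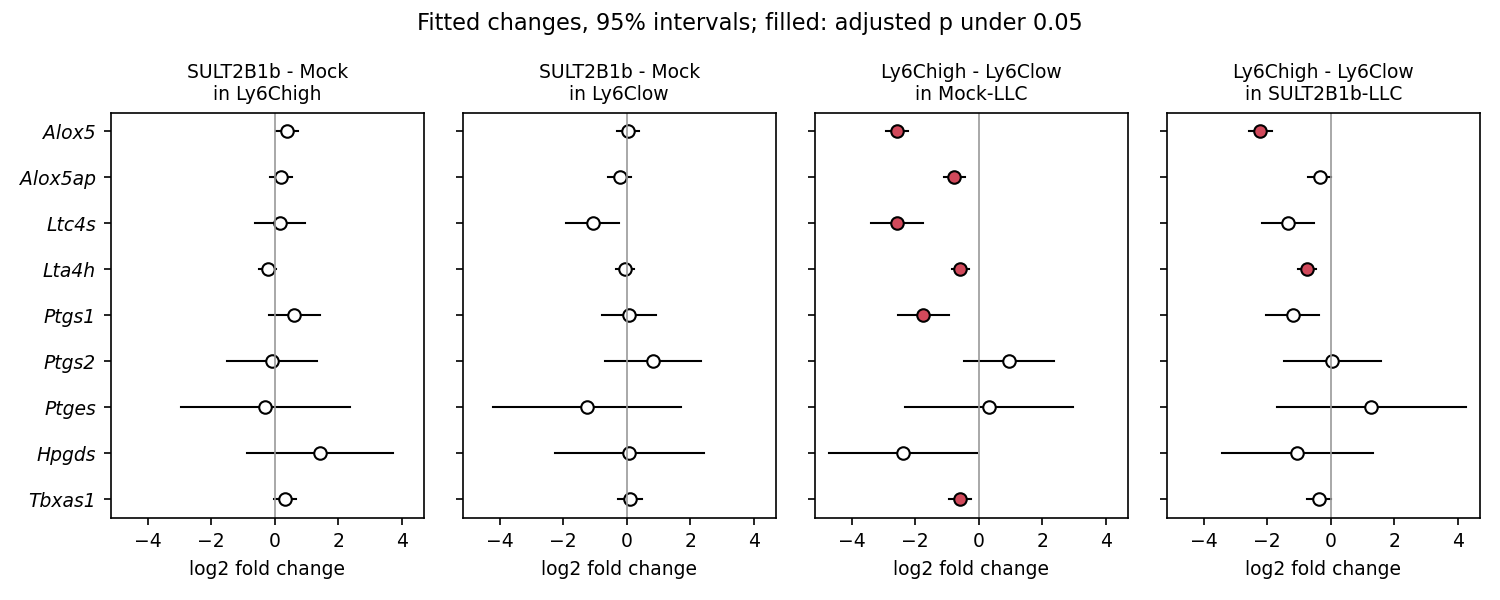
Fitted log2 fold changes (x axis) of the 9 members other than Alox15 in the 4 comparisons between groups, with 95% intervals, filled where the adjusted p was under 0.05. Filled points are in the 2 comparisons between populations: 6 for Mock-LLC and 2 for SULT2B1b-LLC, all below 0.

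Between tumour types, 0 of the 9 members other than Alox15 passed the threshold in edgeR's test, in Ly6Chigh cells (1.62% of all genes called, 0.891% higher and 0.725% lower) or in Ly6Clow cells (0.638% called, 0.507% higher and 0.13% lower). At an unadjusted p under 0.05 there was 1 of 9 in each, Alox5 in Ly6Chigh and Ltc4s in Ly6Clow cells, against 15.6% and 3.74% of all genes. DESeq2 called 0 of the 9 in both, and 7.19% and 1.4% of all genes. The intervals still allow sizeable differences: 95% of -0.87 to 3.72 for Hpgds and -0.19 to 1.42 for Ptgs1 in Ly6Chigh cells, on the log2 scale. For the interaction, which asks whether the effect of tumour type differed between populations, 0 of the 9 passed, where 0.0145% of all genes were called. The largest values were those of Hpgds, 1.34 (SE 1.55), and Ltc4s, 1.23 (SE 0.537, adjusted p = 0.654), the one member of the 9 at an unadjusted p under 0.05 (7.14% of all genes), and DESeq2 called 0 of the 9 and 0.79% of all genes. That of Alox15, given as a description, was 5.66.

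Beyond the members, 56 genes of the pathway were listed by function, and 37 were measured well enough to test. Between tumour types 0 of 37 were called in Ly6Chigh cells (7 at an unadjusted p under 0.05, against 15.6% of all genes) and 0 of 37 in Ly6Clow cells (4 at an unadjusted p under 0.05, against 3.74%). DESeq2 called 4 in Ly6Chigh cells, Akr1b3, Alox12e, Dpep2 and Ltb4r1, where it called 7.19% of all genes, and 0 in Ly6Clow cells. All 32 Alox12e counts in SULT2B1b-LLC Ly6Chigh cells came from tumour 1. In Mock-LLC tumours 5 of 37 were lower in Ly6Chigh than in Ly6Clow cells and 0 higher, and the share of all genes lower was 4.86%. The median log2 change of the 37 was -0.27. Each of the 5 is from a different list of function. They were Pla2g15, a lysosomal phospholipase (134 ± 16.1 against 85.4 ± 25.6 CPM, SD, n = 4 each), Akr1b3, an aldose reductase (95.2 ± 9.50 against 45.5 ± 13.7 CPM), and Ptgr1, an enzyme of leukotriene and prostanoid breakdown (43.8 ± 4.14 against 17.3 ± 7.01 CPM). The others were Ltb4r1, the leukotriene B4 receptor (225 ± 18.8 against 159.7 ± 9.32 CPM), and Alox12e, a lipoxygenase whose gene lies beside Alox15 on chromosome 11 (6.66 ± 1.47 CPM against 0 counts in all 4 libraries). In SULT2B1b-LLC tumours 2 of 37 were lower, where the share of all genes lower was 1.54%. They were Pla2g15 (adjusted p = 0.033) and Pla2g7, the platelet-activating factor hydrolase (528 ± 35.3 CPM, n = 3, against 338 ± 67.0 CPM, n = 4, adjusted p = 0.0258). With the tumour as a block these counts were 3 in Mock-LLC and 0 in SULT2B1b-LLC tumours. With any 1 of the 15 libraries left out they were 2 to 4 and 0 to 2, so the Mock-LLC count was below 5 whichever library was left out. Without SULT2B1b-LLC Ly6Chigh tumour 1 they were 3 (Akr1b3, Alox12e and Ptgr1) and 1. The latter was Alox12e, at 0 counts in the 3 Ly6Chigh libraries left, while Pla2g15 and Pla2g7 lost their calls.

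Among the lists of function, the receptors for leukotrienes and lipoxins had a median log2 change above 0 in Mock-LLC tumours (0.34 over 8 genes tested), with 1 of 8 called, Ltb4r1, which was lower. The release step (6 tested), the other lipoxygenases (1), the terminal synthases (8) and the breakdown enzymes (8) each had 1 called, and the transporters (2) and prostanoid receptors (4) had 0.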

How the data were processed

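RNA was measured in 15 libraries of sorted myeloid cells. Per the labels' protocols, 500 ng of RNA per library went into the SMART-Seq v4 kit, sequenced as single-end reads of 75 nt. The authors deposited 1 table of whole-number counts by gene symbol, whose column totals differ, so no scaling was applied to them. The submitters' processing notes list STAR 2.5.3a, featureCounts, limma, mm10 and GRCm38. Options used in counting were not stated. The kit does not mark strand, so overlapping genes cannot be told apart.

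Groups came from the labels. Nothing says that each tumour came from its own mouse, so p-values describe only how these samples spread, which may be technical. The test was that of edgeR 4.0.16 (R 4.3.3): filterByExpr (minimum count 10), TMM on library sizes summed over the 13800 genes kept, and a robust quasi-likelihood fit of 4 groups. P-values were two-sided and Benjamini-Hochberg adjusted over all genes tested, with a threshold of 0.05. All adjusted p-values come from this test unless another tool is named. Levels are CPM as mean ± SD. Per-kilobase levels used the union of exons in GENCODE vM21 on GRCm38. Log2 CPM for likeness used a prior count of 2. Reads without molecular identifiers are not independent molecules, so the Alox15 count ratio is given without an interval. Intervals of log2 changes come from the fit. A floor of 3 counts was 0.0777 to 1.14 CPM per library.

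The members and gene lists were chosen with earlier results of these data known, and the 2 lengths of promoter element were picked after the promoter windows had been read. Named genes were all members, pathway genes past the threshold (up to 6 per direction), the 8 genes most like Alox15 over all libraries and the 5 most like it in Ly6Clow libraries, Sult2b1 and the gate genes, of which Ly6c2, Itgax and H2-Ab1 are given. Alternatives were other scaling, filters, DESeq2 1.42.0, limma-voom (limma 3.58.1), fits of 2 groups, a block for tumour or replicate number, a threshold of 0.01 and each library left out. Ly6Clow and Ly6Chigh libraries that share a number and tumour type in their labels were taken to come from 1 tumour. Deviations from the group means correlated between them at 0.0279 to 0.0936 in Mock-LLC and -0.0103 to 0.0795 in SULT2B1b-LLC.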

Additional observations from a re-analysis of the deposited data

Results flagged for a closer look

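Of 48 groups of 4 libraries screened over 16 named genes, 8 held a library far from the other 3, where chance gives about 1 in 20. The genes share libraries, so these are not independent. In Mock-LLC Ly6Clow cells Alox15 was highest in tumour 4 (308 CPM), and in Mock-LLC Ly6Chigh cells its counts came from tumour 4 alone (0.362 CPM). In SULT2B1b-LLC Ly6Chigh cells 3 of the 8 were tumour 1, the library with the fewest counts: Alox5ap was lowest there (384 CPM), Tbxas1 highest (407 CPM), and Alox12e was at 12.1 CPM there and 0 in the other 3. Tbxas1 was lowest in Mock-LLC Ly6Chigh tumour 1 (184 CPM). Ptgr1 was highest in Mock-LLC Ly6Clow tumour 1 (49.97 CPM) and lowest in SULT2B1b-LLC Ly6Chigh tumour 3 (19.5 CPM).

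The difference between tumour types was larger in Ly6Chigh than in Ly6Clow cells for Alox15, by 5.66 on the log2 scale. Alox15 was chosen for these levels, and 3 of the 4 Mock-LLC Ly6Chigh libraries were at 0 counts, so this size depends on how a count of 0 is treated. Without Mock-LLC Ly6Chigh tumour 4 the fitted value was 9.75.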

How the results depend on the processing

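Over 1385 comparisons of a fitted change with its value under another setting, 1309 counted as the same. Of the others, 39 lost the threshold, 10 gained it, and 3 moved, those of Alox15 without Mock-LLC Ly6Chigh tumour 4. For members other than Alox15, the same means that direction and side of the threshold were kept. For Alox15 it means a shift below the largest SD of log2 CPM in the groups compared, and its side of the threshold was not compared. Calls for Alox5 (both tumour types) and Ltc4s (Mock-LLC) between populations held in every setting tried. Sign turned in 24, all past the threshold in neither setting. Between populations in Mock-LLC tumours Ptges was -0.92 with limma-voom, -0.17 with quality weights and -0.98 with the replicate block, and -0.19 to 0.79 with 1 library left out. In SULT2B1b-LLC tumours Ptgs2 was -0.29 with limma-voom and -0.13 with quality weights, and -0.49 to 0.48 with 1 left out. Between tumour types in Ly6Clow cells, leaving out 1 library gave Ptgs1 -0.074 to 0.25 (-0.12 with the replicate block), Hpgds -0.069 to 0.37, Lta4h -0.070 to 0.014 and Alox5 -0.041 to 0.15. In Ly6Chigh cells it gave Ltc4s -0.11 to 0.46, Ptgs2 -0.66 to 0.31 and Ptges -1.20 to 0.29. The interaction of Tbxas1 was -0.011 with the replicate block and -0.026 to 0.28 with 1 left out.

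The count of pathway genes called between populations in Mock-LLC tumours (5) was 3 with median-ratio factors, no filter, a stricter filter, whole-table library sizes, a fit of 2 groups or the replicate block, 9 with limma-voom, 2 at an adjusted p under 0.01, and 2 to 4 with 1 library left out. In SULT2B1b-LLC tumours (2) it was 0 with median-ratio or upper-quartile factors, no filter, whole-table library sizes, the replicate block or an adjusted p under 0.01. It was 1 with the stricter filter or a fit of 2 groups, 4 with DESeq2, 7 with limma-voom, 6 with quality weights, and 0 to 2 with 1 library left out. Between tumour types (0) it was 4 with DESeq2 and 0 to 1 with 1 left out in Ly6Chigh cells. In Ly6Clow cells it was 2 with limma-voom, 4 with quality weights and 3 in a fit of 2 groups. The cause was not tested. Whole-table library sizes were added after seeing the data. Among calls of members other than Alox15, the replicate block changed that of Lta4h in SULT2B1b-LLC tumours. The interaction was not run in fits of 2 groups. Per-kilobase levels moved by over 1 SD in 21 of 40 when the longest transcript replaced the exon union. Ly6Chigh depth limits Alox15 at 0 counts and Ptges and Hpgds near the floor.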
